A study of Mus musculus with 10 samples.

Results

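Footprints exactly 30 bp wide, the largest width that the deposited list holds, were 38035 of its 329076 footprints. They were 11.56% of the list (95% Wilson interval 11.45 to 11.67%; such intervals cover only counting error) and held 17.26% of all footprinted bases. Members were chosen by width alone, as end minus start, and were set beside the 124774 footprints of 15 to 25 bp. The list comes from 3T3-L1 preadipocytes, an established mouse line that can be turned into fat cells in culture, harvested 4 h into adipogenic induction. The cells had received 1 µM dexamethasone (a glucocorticoid), 0.5 mM 3-isobutyl-1-methylxanthine (which raises cyclic AMP), 1 µg/mL insulin and 10% fetal calf serum. There are 2 DNase samples of DNA of about 100 to 150 bp, of which 1 was read from both ends; they are further sequencing of 1 library, and the authors pooled them with its earlier reads. The footprints thus carry no replicates and no read depth, and the other 8 samples, RNA from 4 groups of cells with a scrambled shRNA or one against C/EBPβ at 0 h and 4 h, were not analysed here.

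DNase I cuts DNA that is not wrapped in nucleosomes, and stretches with many cuts are called DNase I hypersensitive (DHS) sites. A protein bound inside such a site shields its own contact bases, which leaves a short dip in the cuts, the footprint. A single transcription factor shields a short stretch, while factors that bind side by side, as C/EBP proteins, AP-1 and the glucocorticoid receptor are known to do in early adipogenesis, can shield a longer one. A caller with a maximum width reports no dip wider than its limit, so whether a footprint at that limit was the whole of a protected stretch cannot be told from the list. Each footprint also carries the authors' score, a negative number of unstated scale, and more negative values were read as stronger. With 1 library there is no test between width classes, and the differences below are descriptions with counting intervals and values by chromosome.

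The 30 bp class broke with the run of widths just below it. Counts grew slowly from 13179 footprints at 25 bp to 14299, 16295, 18017 and 20752 at 26, 27, 28 and 29 bp, and then reached 38035 at 30 bp. Each of those steps below the limit was a factor of 1.08 to 1.15, and the last step was 1.83. The step from 29 to 30 bp was present on 20 of 20 chromosomes, from 1.57-fold to 2.25-fold. Other properties jumped at the same step. The median score went, with small reversals, from -4.22 at 8 bp to -4.75 at 29 bp and back to -4.34 at 30 bp. The median width of the surrounding DHS site was 1124 bp at 8 bp, 1002 bp at 29 bp and 832 bp at 30 bp. Only footprints of their site were 0.388% of those at 8 bp, 5.32% at 29 bp and 12.12% at 30 bp.

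**Figure D1:**
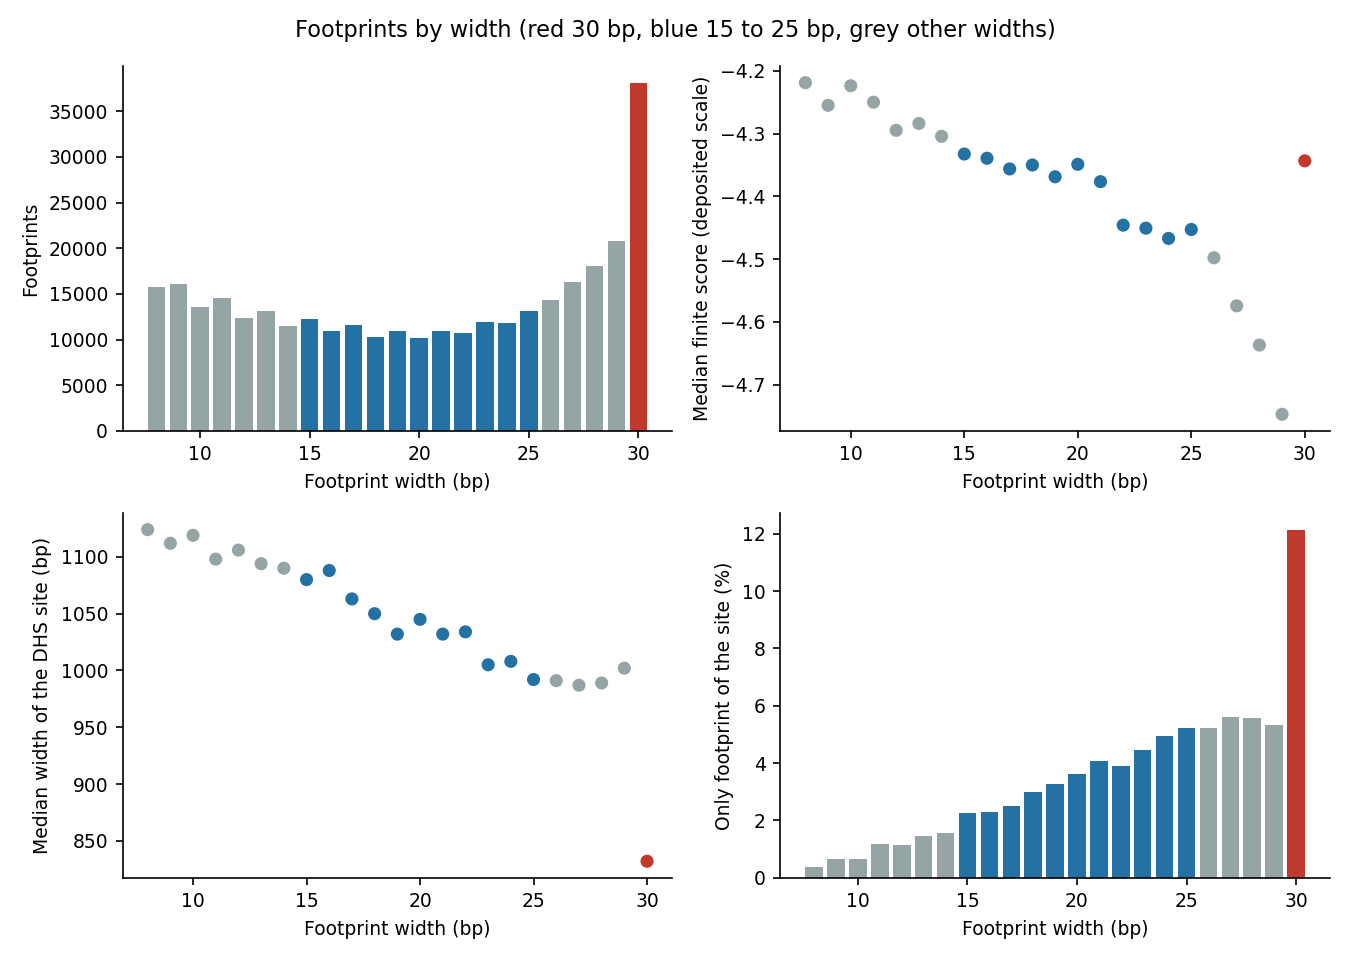
Panels by footprint width in bp, for all 329076 footprints: number of footprints, median finite score, median width of the DHS site and percent that are the only footprint of their site. Red marks 30 bp and blue 15 to 25 bp; in each panel the value at 30 bp stands off from the 29 bp value (38035 against 20752 footprints, 832 against 1002 bp site width).

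Footprint by footprint, the 30 bp class sat in narrower sites with fewer footprints than the 15 to 25 bp class. Site by site, the medians lay close. The site around a 30 bp footprint was 832 bp wide at the median (quartiles 624 and 1267 bp), and that around a 15 to 25 bp footprint 1039 bp (749 and 1496 bp). The difference of -207 bp (95% interval -215.1 to -199.8 bp) held its sign on 20 of 20 chromosomes, with a mean of -208.2 ± 26.98 bp (SD over 20 chromosomes). A 30 bp footprint shared its site with fewer others, the median site holding 6 footprints (interquartile range 3 to 11) against 9 (5 to 16). Counted once per site rather than per footprint, the differences were -24 bp and 0 footprints. Sites holding the 30 bp class had a median width of 764 bp and 5 footprints, and sites holding the 15 to 25 bp class 788 bp and 5 footprints. Footprinted sites with none of 30 bp were the narrower and sparser ones, with medians of 686 bp and 3 footprints. A site with more footprints has more chances of holding any given width, so this order follows in part from counting. Both classes were present in 19260 sites, which count on both sides of the site medians. Those medians thus cannot show whether 30 bp footprints favour sparse sites. Among sites with like numbers of footprints, site widths were also close: 635 against 660 bp with 2 to 4 footprints, 821 against 843 bp with 5 to 9, and 1471 against 1450 bp with 10 or more.

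A lone footprint, with no other in its DHS site, was 30 bp wide more often than any other width. Of 13841 lone footprints in the list, 4608 were 30 bp (33.3%, 95% Wilson interval 32.5 to 34.1%) and 1105 were 29 bp. Among all 30 bp footprints, 12.12% were lone (11.79 to 12.45%), against 3.62% (3.52 to 3.73%) of the 15 to 25 bp class. The difference was 8.49 percentage points, with a mean over chromosomes of 8.61 ± 1.67 (SD, n = 20 chromosomes) and the same sign on 20 of 20. It was present in each quintile of site width, from 66.8% against 53.2% in the narrowest sites (251 to 340 bp) to 2.26% against 0.535% in the widest (794 bp and over).

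The share of footprints at the limit fell as sites held more of them. It was 33.3% in sites with 1 footprint, 23.8% with 2, 18.6% with 3, 13.6% with 5, 8.52% with 10 and 6.83% with 15 or more (95% Wilson interval 6.67 to 6.99%). The pile-up over the 29 bp count followed the same course, from 4.17-fold in sites with 1 footprint to 2.69-fold with 2 to 4, 1.72-fold with 5 to 9 and 1.27-fold with 10 or more. By site width, the share fell from 32.2% in the narrowest quintile through 29.2, 23.0 and 14.3% to 8.86% in the widest. Footprint number and site width rise together, and no cut counts accompany either list, so the part of cut depth in these shares was not tested.

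**Figure D2:**
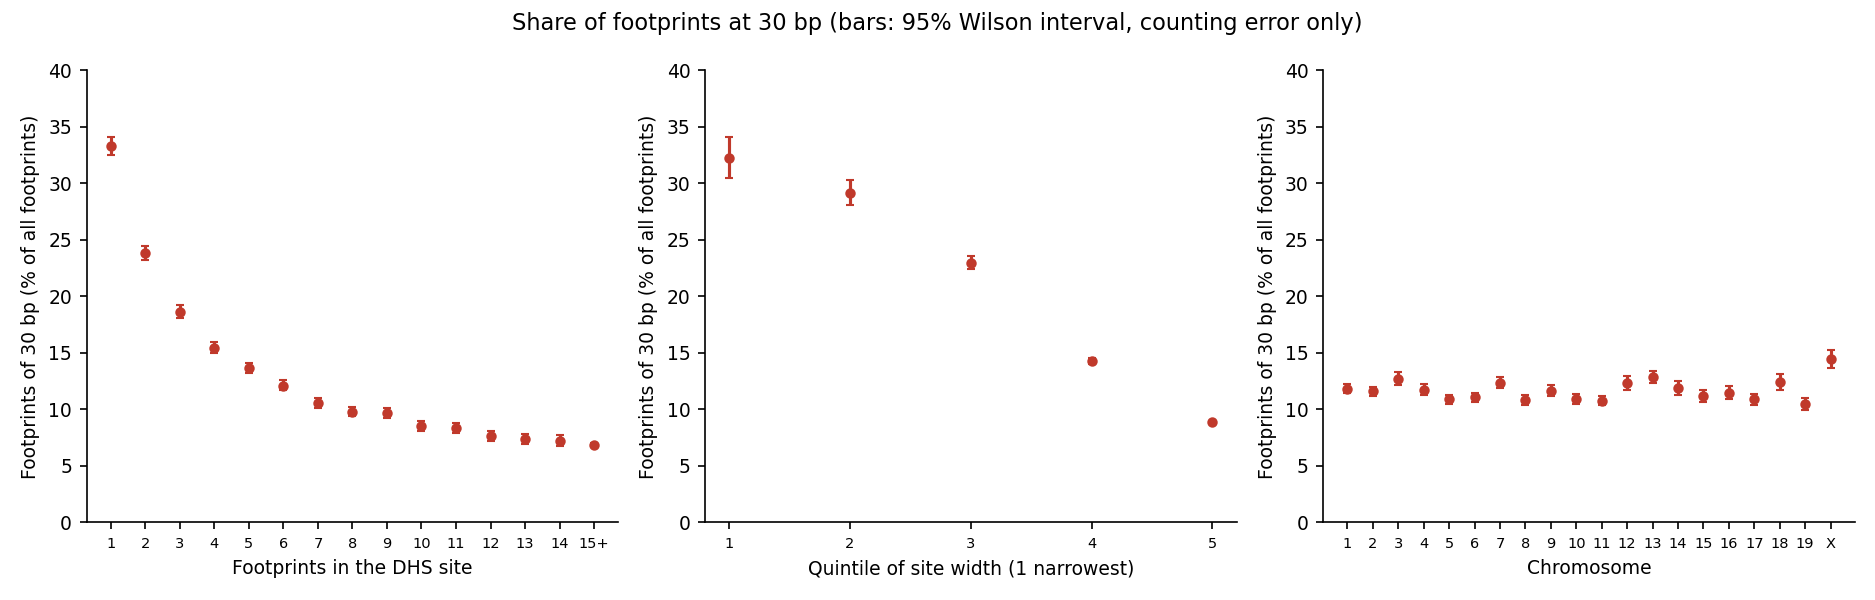
Percent of footprints that are 30 bp wide, by the number of footprints in the DHS site, by quintile of site width and by chromosome; points are shares of pooled footprints and bars 95% Wilson intervals. The share falls from 33.3% in sites with 1 footprint to 6.83% in those with 15 or more, and chromosome X, at 14.4%, lies above the 19 autosomes.

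At least 1 footprint of 30 bp was found in 28029 of the 58632 sites with any footprint (47.8%). Most of these sites, 20547 (73.3%), had just 1, and 5697 had 2, 1323 had 3 and 148 had 5 or more. In 5205 sites every footprint was 30 bp wide. Of these, 4608 were the lone footprints above, 537 had 2 footprints, 55 had 3, 3 had 4 and 2 had 5. Among the other footprints of its site, a 30 bp footprint had on average 13.7% at 30 bp too, against 10.4% for a footprint of 15 to 25 bp. With like numbers of footprints the values were 21.7 against 18.6% with 2 to 4, 12.45 against 11.01% with 5 to 9, and 7.71 against 7.20% with 10 or more.

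Scores of 30 bp footprints were near those of the comparison class in the pooled list, with finite values from -90.5 to -3.54. The median finite score was -4.34 (interquartile range -5.41 to -3.85), against -4.39 (-5.44 to -3.87). The difference of 0.045 (95% interval 0.030 to 0.062) was positive on 17 of 20 chromosomes and averaged 0.053 ± 0.048 (SD over chromosomes). Among sites with like numbers of footprints the order turned round, and 30 bp footprints had the more negative median in each of 4 groups. With 1 footprint the medians were -3.87 against -3.78, with 2 to 4 they were -4.09 against -3.96, with 5 to 9 they were -4.49 against -4.35, and with 10 or more -5.10 against -4.84. The order was also turned in each of the 5 quintiles of site width, by between -0.029 (sites of 341 to 470 bp, with an interval of -0.067 to 0.0040) and -0.10. Scores were weakest in sites with 1 footprint, which held 12.12% of the 30 bp class and 3.62% of the 15 to 25 bp class.

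The same held inside single sites. In 19218 sites with finite scores for both classes, the median score of each class was taken per site. The 30 bp median was the stronger in 11450 (59.6%), and the median difference was -0.20 (quartiles -0.998 and 0.34). In sites with 2 footprints, a 30 bp footprint was the stronger of the pair in 57.6% of cases (56.1 to 59.1%) and a 15 to 25 bp footprint in 46.5% (45.3 to 47.7%). In sites with 10 footprints, the strongest of the site was found among 16.2% of the 30 bp class and 10.2% of the 15 to 25 bp class. Scores of -Inf were kept in both of these counts and ranked as the strongest. Against widths just below the limit, 30 bp footprints did not have the stronger median in sites with 2 or more. Footprints of 29 bp had medians of -4.16, -4.73 and -5.51 in sites with 2 to 4, 5 to 9, and 10 or more footprints. Site medians were also compared in the 15950 sites with finite scores for both 30 bp and 26 to 29 bp footprints. The median difference was 0.041, and the 30 bp median was the stronger in 48.2%.

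Over the whole score range, the 30 bp share took a shallow U shape. The strongest 10% of finite scores held 12.4% at 30 bp, decile 3 (counted from the strongest) held 10.8% and the weakest 10% held 12.2%. By contrast, 29 bp footprints fell steadily from 10.7% of the strongest decile to 4.40% of the weakest. Scores weaker than -4 made up 34.2% of the 30 bp class, 24.5% of the 29 bp class and 32.5% of the 15 to 25 bp class. Scores stronger than -10 made up 3.48, 5.75 and 2.82% of them in the same order.

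**Figure D3:**
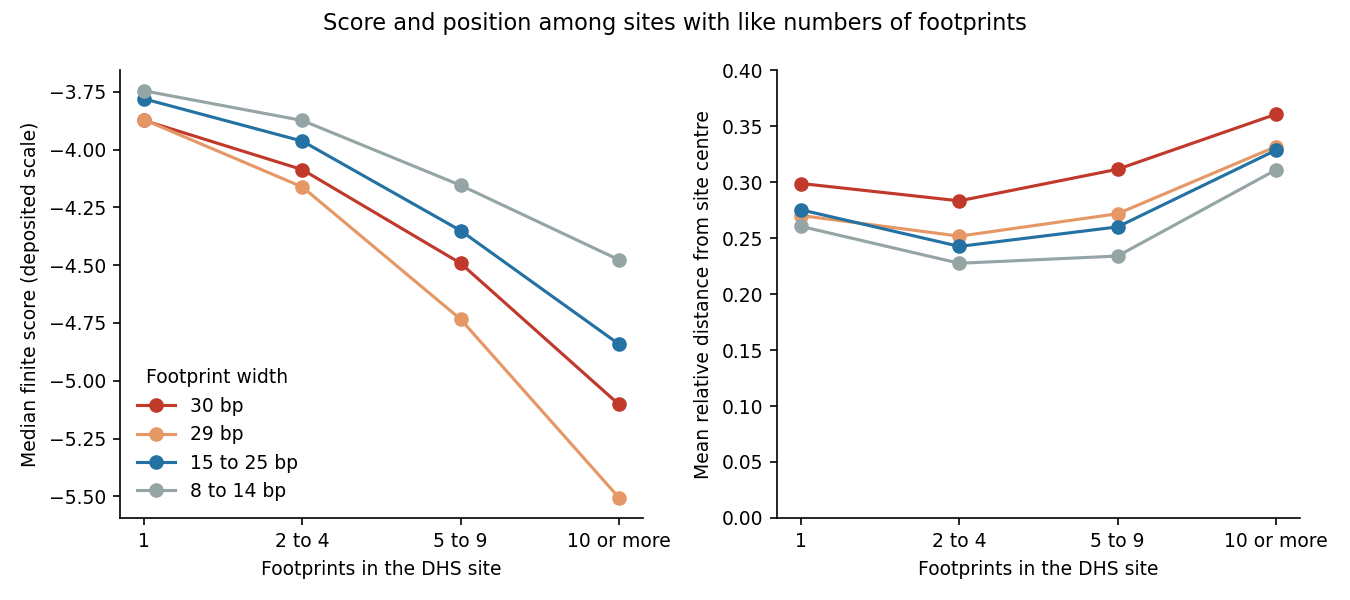
Median finite score (left) and mean relative distance from the site centre (right; 0 is the centre and 1 the edge), by number of footprints in the DHS site, for footprints of 30, 29, 15 to 25 and 8 to 14 bp. In each of the 4 groups of sites the 30 bp median score lies below that of 15 to 25 bp (-5.10 against -4.84 at 10 or more). The mean relative distance is largest at 30 bp in each group.

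Within their sites, 30 bp footprints lay farther out relative to the width of the site, but not in bp. The median distance from the centre was 117 bp, against 125 bp for 29 bp and 125.5 bp for 15 to 25 bp. The mean distance from the site's centre, as a share of the way from centre to edge, was 0.317 ± 0.213 (SD over 38035 footprints), against 0.292 ± 0.198 for 15 to 25 bp and 0.295 ± 0.199 for 29 bp. The difference of 0.0258 to the 15 to 25 bp class had this sign on 20 of 20 chromosomes (0.0135 to 0.0395). Among sites with like numbers of footprints the difference was 0.0235 with 1, 0.0407 with 2 to 4, 0.0515 with 5 to 9 and 0.0322 with 10 or more. It ran the other way in the narrowest quintile of sites, 0.361 against 0.447. Among sites with 3 or more footprints, a 30 bp footprint was the outermost on either side in 41.5% of cases, a 29 bp footprint in 30.0% and a 15 to 25 bp footprint in 24.9%. Sites with few footprints weigh more in the 30 bp share. With like numbers the shares lay closer in percentage points, though only slightly with 5 to 9 footprints. For 30 against 15 to 25 bp they were 73.6 against 67.3% with 3 footprints, 46.6 against 31.0% with 5 to 9 and 22.1 against 13.1% with 10 or more. The median distance from the nearer site end was 275 bp for the 30 bp class and 347 bp for the 15 to 25 bp class, and 277 against 307 bp in sites with 5 to 9. Sites around the 30 bp class were also narrower, with medians of 832 against 1039 bp over all sites.

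The class was a larger share of footprints near site ends than deep inside sites. Footprints that lay wholly within 200 bp of a site end were 30 bp wide in 28.4% of cases (7982 of 28095, 95% Wilson interval 27.9 to 28.9%), and those more than 200 bp from both ends in 9.48% (9.38 to 9.59%). The 6933 footprints that lay across the 200 bp distance were 30 bp wide in 31.2% (30.2 to 32.3%). A wider footprint lies across any given distance more often, so this last share cannot be read as a contrast of position. The 30 bp count was 4.43 times the 29 bp count in the outer stretch and 1.53 times in the inner one. The outer stretch held 21.0% of all 30 bp footprints, 8.68% of those of 29 bp and 7.51% of those of 15 to 25 bp. Among sites with like numbers of footprints the contrast was 40.03 against 26.5% with 1, 29.2 against 15.3% with 2 to 4, 22.9 against 9.81% with 5 to 9 and 16.0 against 7.0% with 10 or more. Sites of the narrowest quintile (251 to 340 bp), with a 30 bp share of 32.2%, are too narrow to hold an inner footprint. The contrast was not taken among sites of like width. With the inner footprints alone, the mean relative distance of 30 bp footprints was no longer the larger (0.265 against 0.272). Their median score was the more negative (-4.59 against -4.47). The 200 bp distance was chosen after the data were seen, for the reason given next.

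Many 30 bp footprints began at a fixed distance from a site's end. In 898 of them (2.36%, 95% Wilson interval 2.21 to 2.52%) the lower boundary lay exactly 200 bp before the site's higher end. The 20 neighbouring distances, 10 on each side, held 55.3 such footprints on average and at most 99. These 898 were 1.68 to 3.22% of the 30 bp footprints of each of 20 chromosomes. Their sites had a median width of 555 bp and 3 footprints, 197 of them (21.9%) were lone, and their median finite score was -4.0. The mirror position, ending exactly 200 bp after the site's lower end, held 139. On the inner side of the same lines, 302 began 1 bp beyond 200 bp from the lower end and 142 ended 1 bp beyond 200 bp from the higher end.

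Other widths also met these lines, but evenly on both sides. Counting all 4 positions, 1199 footprints of 30 bp began just above a line and 280 ended just below it, a ratio of 4.28. Footprints of 29 bp numbered 218 and 221 and those of 15 to 25 bp 784 and 820, ratios of 0.986 and 0.956. At the position where 898 footprints of 30 bp began, there were 117 of 29 bp (8.36 times the mean of the neighbouring distances) and 424 of 15 to 25 bp (6.35 times), against 16.2 times at 30 bp. In all, 3.88% of the 30 bp class, 2.11% of the 29 bp class and 1.28% of the 15 to 25 bp class had a boundary on a line. Whether the lines come from how sites or search windows were drawn was not tested. 

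**Figure D4:**
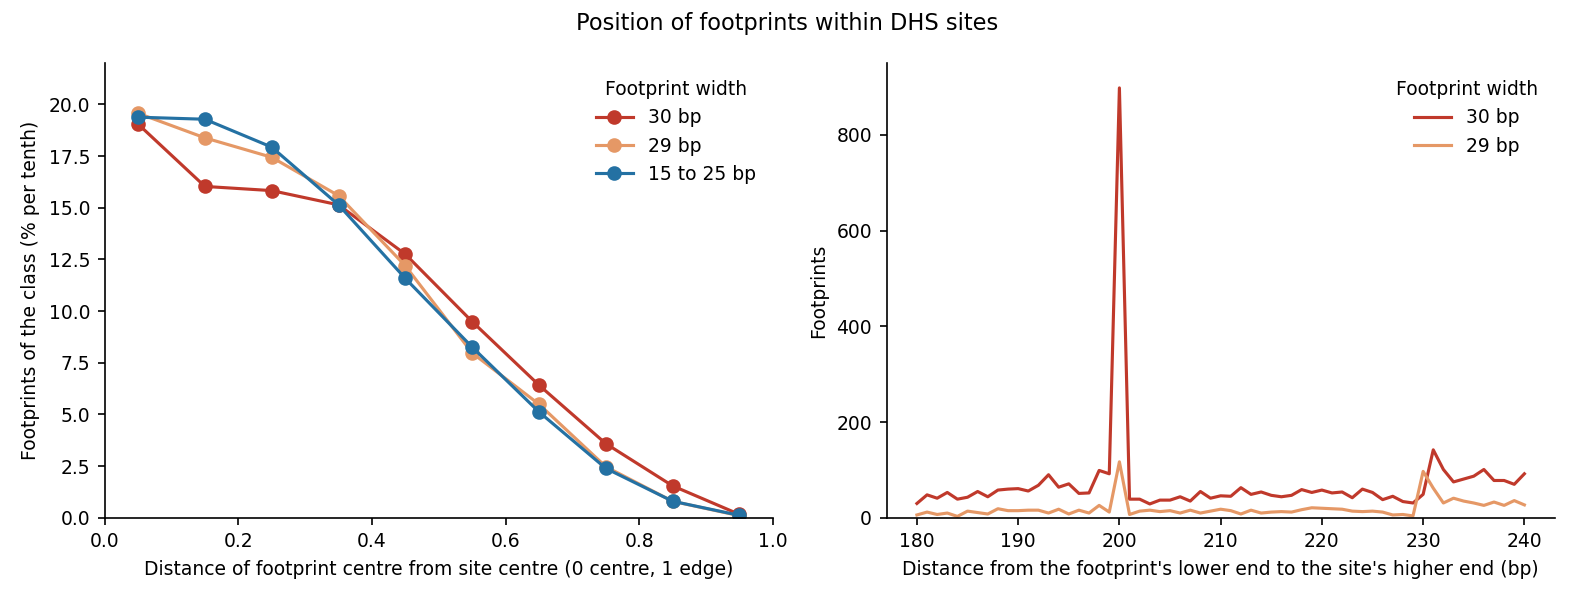
Left, percent of footprints of 30, 29 and 15 to 25 bp in steps of 0.1 of the way from site centre (0) to edge (1). Right, number of 30 and 29 bp footprints by the distance in bp from the footprint's lower end to the site's higher end; 898 footprints of 30 bp and 117 of 29 bp stand at exactly 200 bp.

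Neighbouring footprints stood farther from the 30 bp class. The nearest other footprint of the site was a median of 25 bp away (interquartile range 9 to 51 bp), against 16 bp (7 to 28 bp) for the 15 to 25 bp class and 19 bp (7 to 36 bp) for 29 bp. The difference of 9 bp to the 15 to 25 bp class was positive on 20 of 20 chromosomes, from 7 to 11 bp. Among sites with like numbers of footprints it was 36 against 25 bp with 2 to 4, 22 against 16 bp with 5 to 9 and 17 against 13 bp with 10 or more. Inside the 19260 sites that held both classes, the difference between the site medians of the gap was small, at a median of 1 bp (quartiles -5 and 20 bp). The median gap of the 30 bp footprints was the larger in 50.8% of sites and the smaller in 35.2%. Against 26 to 29 bp footprints of the same site the median difference was 0 bp. A pair of adjacent 30 bp footprints was rarely close: of 2831 such pairs, 191 (6.75%) had a gap of 10 bp or less, and the median gap was 70 bp. Among 39201 adjacent pairs of 15 to 25 bp, 14.4% had a gap of 10 bp or less and the median was 22 bp. Close pairs were also uncommon among 9654 adjacent pairs of 26 to 29 bp, at 8.85%, with a median gap of 36 bp.

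Direct abutment was an exception to this spacing. The smallest gap in the list is 1 bp, and 30 bp footprints had a neighbour at that gap in a larger share of cases than the other width classes, with more on the higher side. The next footprint at higher coordinates was 1 bp away in 1554 of 24810 cases (6.26%), and the one at lower coordinates in 1088 of 25773 (4.22%). For 29 bp the figures were 615 of 16289 (3.78%) and 572 of 16199 (3.53%), and for 15 to 25 bp 2.92 and 3.17%. The higher side had more 1 bp gaps than the lower on 19 of 20 chromosomes for 30 bp and on 12 of 20 for 29 bp. At 2 bp the sides of the 30 bp class were the other way, 634 higher and 836 lower. The abutting partner on the higher side had a median width of 18 bp, and 71 of the 1554 were 30 bp themselves. Whether the pieces were called from 1 longer protected stretch was not tested.

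**Figure D5:**
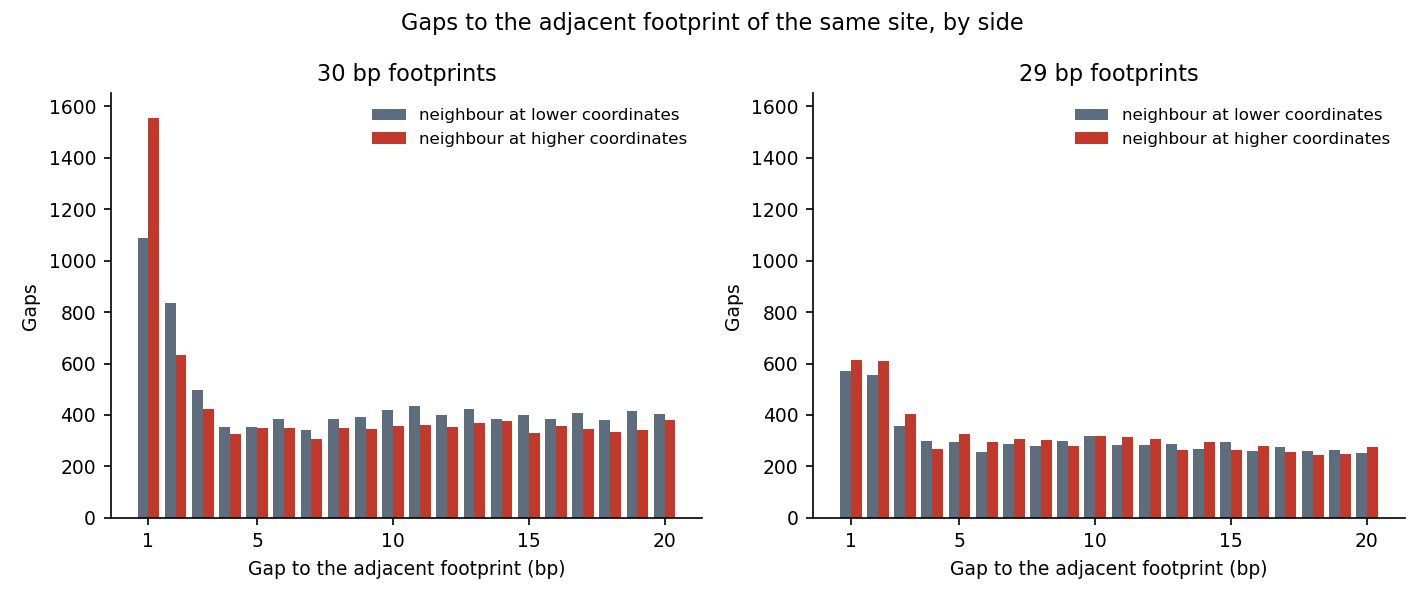
Number of gaps of 1 to 20 bp between a footprint of 30 bp (left) or 29 bp (right) and the adjacent footprint of its site, at lower coordinates (grey) and at higher coordinates (red). At 1 bp the 30 bp class has 1554 gaps on the higher and 1088 on the lower side, while the 29 bp class has 615 and 572.

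Runs of adjacent 30 bp footprints at most 10 bp apart were few. There were 190, holding 381 footprints (1.00% of the class), with a median span of 63 bp, and 189 of them were pairs. The only run of 3 covered 98 bp on chromosome 7 (mm9, 119957204 to 119957301). Its site was 1092 bp wide and held 15 footprints. Its members scored -3.68, -3.89 and -4.93, and gaps of 6 and 2 bp parted them. The pairs tie in number, and the first 4 in genome order, on chromosome 1, are given. One at 16647323 to 16647386, in a site with 26 footprints, had scores of -10.4 and -7.52 across a gap of 4 bp. The pair at 13161310 to 13161379 had scores of -3.76 and -4.19 and another footprint 1 bp beyond it. The pairs at 45467858 to 45467920 and 60526535 to 60526595 scored between -5.10 and -3.86.

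The sites with the most 30 bp members were broad and held 65 to 144 footprints. A site of 6454 bp on chromosome 8 (72061769 to 72068222) held 15 among its 75 footprints, or 20%. A site of 9549 bp on chromosome 5 (33075852 to 33085400) held 14 of 143, and one of 9266 bp on chromosome X (166432132 to 166441397) held 14 of 125. A site of 4981 bp on chromosome 1 (24618210 to 24623190) held 11 of 144, or 7.64%. Its 11 members scored between -84.5 and -16.2 with a median of -45.6, where the median of all its footprints was -24.0. A second site on chromosome 8 (19894546 to 19899302) held 10 of 65, the first in genome order of 3 sites with 10, with a median of -6.92 for the members and -4.58 for the whole site. In all 5 sites the 30 bp members had the more negative median.

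Sites made up of 30 bp footprints alone held few of them. Among the members of the 3 leading sites, the strongest scored -9.09. On chromosome 1 (31672016 to 31673841, 1826 bp) the scores in genome order were -4.33, -9.09, -5.48, -3.59 and -4.37, with gaps of 182, 488, 58 and 140 bp. On chromosome 6 (70154370 to 70155334, 965 bp) they were -3.72, -3.97, -3.62, -3.54 and -5.81, with gaps of 25 to 254 bp. The value of -3.54 equals, at 2 decimals, the weakest score in the list. A site of 629 bp on chromosome 6 (13551449 to 13552077), the first in genome order of 3 with 4 members, had scores of -4.17, -3.78, -6.13 and -5.64 and gaps of 41, 16 and 35 bp. In these 3 sites footprints covered 8.21, 15.5 and 19.1% of the DNA.

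The 5 strongest finite scores at 30 bp came from 4 sites. The most extreme, -90.5, was on chromosome 12 (79451889 to 79451918). Its site was 920 bp wide with 9 footprints, and the fourth, -75.7, lay in the same one at 79452018 to 79452047. The second (-84.5, 24619318 to 24619347) was in the chromosome 1 site with 144 footprints described above. The third (-76.0) was on chromosome 4 (79648896 to 79648925); its site, 3195 bp wide, held 80 footprints, 8 of them 30 bp wide. The fifth (-74.7) was on chromosome 6 (47721908 to 47721937), where the 544 bp site held 3 footprints. It was the strongest of its site, whereas the other 4 ranked 2 or 3 in theirs. The strongest lone member scored -41.0 and was on chromosome 11 (17826223 to 17826252), at the exact centre of a site of 370 bp. Its lower boundary was also 200 bp from the site's higher end, so it was among the 898 above. The next lone members were on chromosome 11 (22609224 to 22609253, -25.7) and chromosome 8 (104548566 to 104548595, -24.9), in sites of 551 and 581 bp.

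Across chromosomes the class varied little, apart from X. Its share was 11.57 ± 0.716% over the 19 autosomes (SD, n = 19), from 10.46% on chromosome 19 to 12.9% on chromosome 13. On chromosome X it was 14.4% (994 of 6887, 95% Wilson interval 13.6 to 15.3%). Among sites with like numbers of footprints, X was above each autosome for lone footprints (40.5%, interval 36.3 to 45.0%, against 30.5 to 40.2%). That lead lay inside the counting interval of X. In sites with 10 or more, X was also above each autosome (9.13%, interval 8.19 to 10.2%, against 6.67 to 7.84%). It was within the autosomal range for 2 to 4 (21.7%, with 1 autosome above) and for 5 to 9 (11.6%, with 3 above).

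Shares were also taken in smaller regions, where counting error is larger. Over 1238 bins of 1 Mb with at least 100 footprints, the share of 30 bp had a median of 11.1% (interquartile range 9.37 to 13.3%) and ran from 4.86 to 38.9%. It was over 25% in 5 bins, which were singled out after their values were seen. The bin from 146 Mb of chromosome 5 had 44 of 113 (38.9%, interval 30.5 to 48.2%) and that from 116 Mb of chromosome 12 had 41 of 106 (38.7%). The bins from 130 Mb and 70 Mb of chromosome 6 had 31.3 and 27.05%, and that from 54 Mb of chromosome 14 had 28.7%. Between 21.7 and 34.0% of the footprints of these 5 bins were lone, against 4.21% over the list. Their 30 bp counts were 1.39 to 2.16 times those that the number of footprints per site predicts. Because these bins were picked for a high 30 bp share, high ratios follow in part from that choice. The lowest share, 4.86%, was in the bin from 117 Mb of chromosome 10, with 64 of 1316 footprints and a median of 16 footprints per site. Its count was 0.562 times the 113.9 that the number of footprints per site predicts, and this bin too was picked by its share. Genes at these places, and the DNA letters of the footprints, were not analysed here.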

How the data were processed

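The members and lists were chosen with earlier results of these data known. Nuclei were treated with DNase I and short fragments were taken from a sucrose gradient, per the labels' protocols. HOMER and mm9 are named for these samples, per the submitters' processing notes. The sources used here do not state versions, each tool's step or the footprint caller. A maximum width of 30 bp and a false discovery rate of 0.01 stand in the name of the authors' footprint list. Columns of start and end are coordinates in bp, printed 1-based with starts raised by 1. The deposited column headed p-value per the file headers was treated as a score, since its values are negative or -Inf (496), and -Inf values were left out of medians.

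All 329076 footprints were fully inside 1 of 129028 DHS sites (checked with bedtools 2.31.1). Quintiles of width were over all sites. Differences are 30 bp minus 15 to 25 bp, with 95% intervals combined from those of each class (order statistics for medians, Wilson for shares, normal for means). They treat footprints as independent. Regions named follow a fixed rule: the 5 sites with most members, the 5 largest runs, the 5 strongest members, and the 3 leading sites of 30 bp footprints alone and lone members, with ties cut by chromosome and start. The 200 bp lines and 1 Mb bins were chosen after the data were seen. Differences in the lone share and in score that were built into simulated lists were recovered. Differences in the other measures were not built in. RNA samples were not analysed here. Python 3.11.15, numpy 2.4.6, pandas 2.3.3, scipy 1.17.1 and matplotlib 3.10.9 were used.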

Additional observations from a re-analysis of the deposited data

Results flagged for a closer look

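A score of -Inf was held by 125 footprints of 30 bp, which lie outside the score medians. They were kept in the counts of the strongest footprint of a site. They were 25.2% of the 496 such footprints in the list and 0.329% of the 30 bp class (95% Wilson interval 0.276 to 0.391%), against 0.111% of the 29 bp class and 0.162% of the 15 to 25 bp class. They lay on 19 chromosomes, in sites of median width 589 bp with a median of 2 footprints, and 56 of them (44.8%) were lone. Among lone footprints the shares at -Inf were 1.22% at 30 bp (0.937 to 1.57%), 1.36% at 29 bp and 1.50% at 15 to 25 bp. In sites with 2 to 4 footprints they were 0.495% (0.379 to 0.647%), 0.151% and 0.332%. With 5 to 9 they were 0.118% (13 footprints, 0.0692 to 0.202%), 0.0156% and 0.0861%. With 10 or more they were 0.0256% (3 footprints), 0.0108% and 0.0503%, so the 30 bp share was there below that of 15 to 25 bp, as it was among lone footprints. The bin of 1 Mb with the highest share of 30 bp footprints, from 146 Mb of chromosome 5, held 9 footprints at -Inf among its 113.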

How the results depend on the processing

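No paired analysis was possible because footprints and sites were called on reads of a single library, and RNA samples, which share experiment numbers, were not analysed here. Settings with 29 bp alone, without 16 bins rich in -Inf, without 2 sites of extreme median score, and by the 200 bp lines were added after seeing the data. Of 84 values under alternatives, 39 stayed within the counting interval, 39 moved and 6 reversed; the intervals are narrow because the classes are large. Causes were not tested where none is given. The stronger 50% of footprints gave a 30 bp share of 11.2%, a score difference of -0.031 (reversed), a site width difference of -184 bp, a lone difference of 11.3 points and a position difference of 0.0136. Lone in that setting meant the only footprint of its site among the stronger 50%, so weaker footprints of the same site were ignored. The wider 50% of sites gave 10.7%, -0.0058 (reversed), -154 bp and 4.73 points. Against 26 to 29 bp, the differences were 0.28 in score, -161 bp, -2 footprints, 6.68 points, 0.0212 in position, 6 bp in gap and 3.04 points in the share of other footprints at 30 bp. Against 8 to 29 bp they were -220 bp, -4 footprints, 8.94 points, 0.0288 and 12 bp. Against 29 bp they were 0.40, -170 bp, -2 footprints, 6.79 points, 0.0226 and 6 bp. With each site counted once per class they were -0.042 (reversed), -24 bp, 0 footprints, 5.87 points, 0.0403, 5.67 bp and -7.09 points in the share of other footprints (reversed). That reversal follows from construction, since a site with 1 footprint of 30 bp counts as 0 for the 30 bp class and above 0 for the other. Without boundaries on the lines the share was 11.3% and the width difference -197 bp. Footprints more than 200 bp from both ends gave 9.48%, -0.12 in score (reversed), -110 bp, 4.39 points, -0.0071 in position (reversed), 7 bp and 2.41 points. The share of other footprints differed by 2.66 points with the stronger 50% of footprints and 2.94 points with the wider 50% of sites. Read depth, which limits which footprints could be called, is unknown.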
